A study of Mus musculus with 19 samples.

Results

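The 10 genes described here belong to the Wnt-driven pericentral zone of the liver lobule and were followed through RNA-seq libraries of mouse liver. They were taken by name from a list that was chosen with earlier results of these data known. Of these genes, 10 of 10 were found among the 35498 genes of the files and passed the low-count filter that left 13594 genes. They are the ligands Wnt2 and Rspo3, the R-spondin receptor Lgr5, the receptor-degrading ligases Rnf43 and Znrf3, the feedback inhibitor Axin2, the transcription factor Tbx3, and the hepatocyte genes Glul, Oat and Slc1a2. All libraries are from male mice of the genotype C57Bl/J6, and the labels give 24 weeks without stating whether this is an age or a time on diet. The groups were WSD+beta-Glucan (n = 4 libraries), WSD (n = 5), CTRL+beta-Glucan (n = 5) and CTRL (n = 5), and no further allele or agent is named for any of them. WSD is not spelled out in the labels and is used as a group name. According to its title, the study concerned oat beta-glucan, a soluble cereal fibre, and fatty liver disease.

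Hepatocytes do different work along the axis between the portal vein and the central vein. Endothelial cells of and near the central vein secrete Wnt ligands and R-spondins, which stabilise beta-catenin in the adjoining hepatocytes. R-spondins bind LGR receptors and hold back RNF43 and ZNRF3, which otherwise remove Wnt receptors from the surface, and several members are themselves targets of the pathway. Glutamine synthetase (Glul) is the classic readout in the innermost hepatocytes, where it captures ammonia that the periportal urea cycle has left.

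Each library held 17253823 to 23450232 estimated reads (median 19481377), and no pair of libraries held identical counts. The labels do not say that each library is a different mouse, so p-values measure the spread between these libraries. As a check of the tissue, Alb (albumin) was at 31256 to 110474 CPM in every library. CPM is a gene's count scaled to a common library size, here after TMM scaling, which assumes that most genes do not differ. Differences are log2 fold changes from edgeR's quasi-likelihood test, with p-values adjusted by Benjamini and Hochberg over all 13594 genes and called under 0.05. The 3 libraries with the titles 37, 39 and 40 have the lowest title numbers, and the suffix of 1 of them recurs in another title. They are replicate 1 of WSD+beta-Glucan and the first 2 of CTRL+beta-Glucan, and member calls or signs that change without them are given both ways. Lists, transcript shares and correlations are given only with these 3 libraries included.

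The members spanned a wide range of levels. Per length, as TPM (abundance per transcript length, scaled to the same sum in each library), Oat averaged highest and Glul next in all 4 groups. TPM was not TMM-scaled, so it serves here to order the genes within a group. Groups are compared below in TMM-scaled CPM. Oat was at 1288 ± 353 TPM in WSD+beta-Glucan (SD, n = 4), 698 ± 294 in WSD (n = 5), 721 ± 177 in CTRL+beta-Glucan (n = 5) and 842 ± 208 in CTRL (SD, n = 5). Glul was at 754 ± 135 TPM in WSD+beta-Glucan, 654 ± 99.5 in WSD, 354 ± 53.2 in CTRL+beta-Glucan and 367 ± 24.7 in CTRL. The ranges of Oat and Glul overlapped in WSD and lay apart in the other 3 groups. Slc1a2 came next with group means of 31.2 to 48.8 TPM, apart from the genes above and below it in each group. Tbx3 and Rnf43 followed, with group means of 7.5 to 10.9 TPM and 4.46 to 8.65 TPM, and their ranges overlapped in each group. Axin2 averaged 3.01 to 4.29 TPM. Rspo3, Znrf3, Wnt2 and Lgr5 averaged 0.841 to 2.87 TPM, and neighbours among these 4 overlapped in every group. Wnt2 rested on the fewest reads, 11 to 77 per library, which limits its precision.

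**Figure D1:**
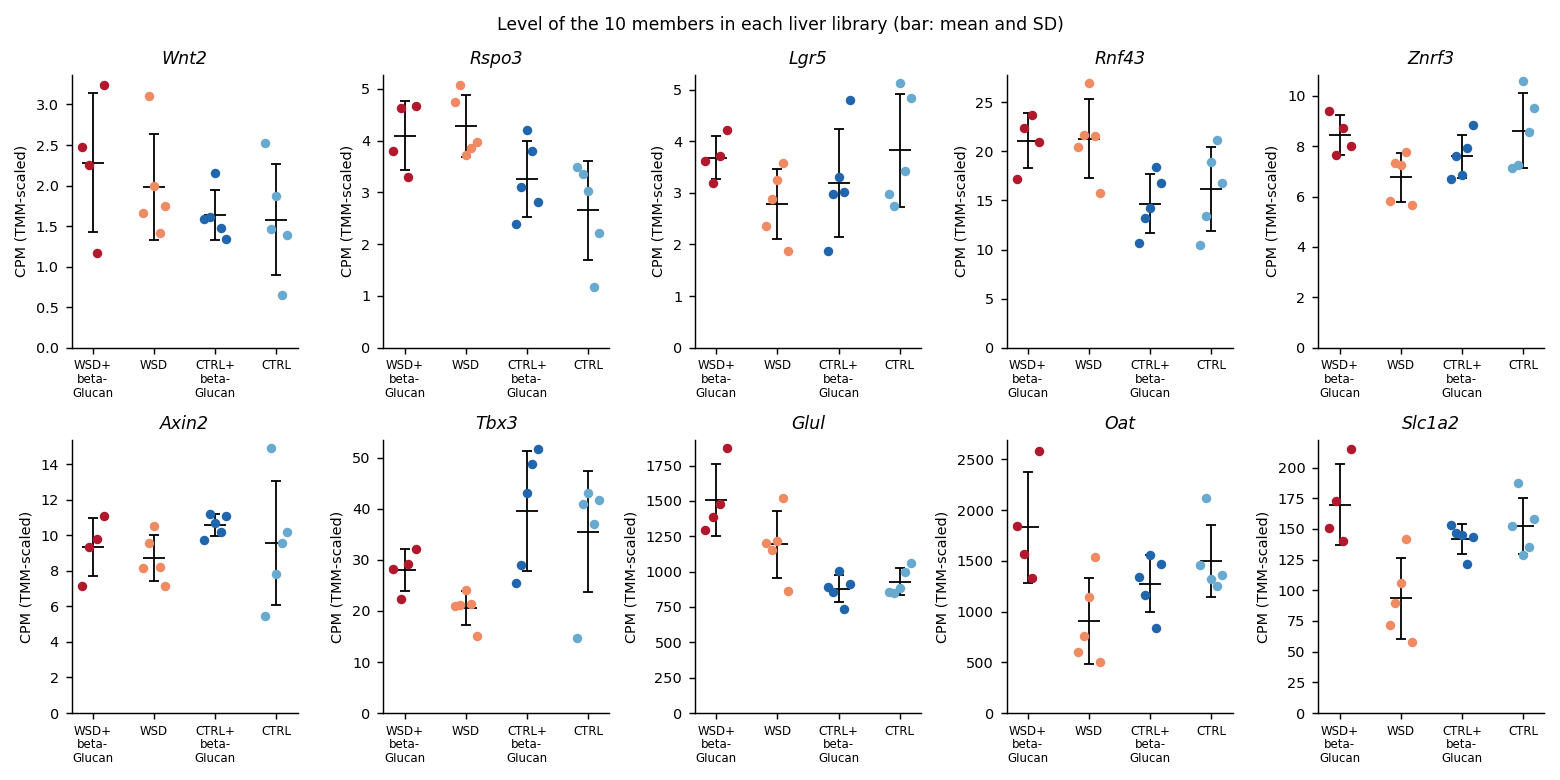
Level of each member in every library, in TMM-scaled CPM on an axis that starts at 0, with 1 panel per gene and the groups from left to right WSD+beta-Glucan, WSD, CTRL+beta-Glucan and CTRL. Points are libraries and bars are means with SD (n = 4, 5, 5 and 5); Glul lies higher in all 4 WSD+beta-Glucan libraries (1297 to 1876 CPM) than in any CTRL+beta-Glucan library (737 to 1002 CPM), while Oat and Slc1a2 reach their lowest values in WSD (505 and 57.5 CPM).

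The first comparison asked what WSD did without beta-glucan. Rspo3 and Glul rose in WSD, while Slc1a2, Oat, Tbx3 and Znrf3 fell. Wnt2, Lgr5, Rnf43 and Axin2 did not pass the test. These 6 calls of 10, 2 higher and 4 lower, stand beside 53.0% of all tested genes called in this contrast, 26.0% higher and 27.1% lower. The share is close to that background. The direction rests on the scaling: with library size alone, 4 members were higher (Wnt2, Rspo3, Rnf43 and Glul) and 0 lower, and of all genes 7874 were higher and 617 lower, since the median of all genes then shifted to 0.43. Changes are therefore relative to most genes. The members' median log2 fold change was -0.24, against -0.04 over all genes. In bulk liver, fewer cells of a type and less RNA per cell cannot be told apart.

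Of the ligands, Rspo3 encodes R-spondin 3, the main R-spondin of central vein endothelium. Rspo3 was at 4.75, 5.08, 3.72, 3.85 and 3.98 CPM in the WSD libraries, against 3.49, 3.35, 3.03, 1.18 and 2.21 CPM in the CTRL libraries. All WSD libraries lay above all CTRL libraries, and 38.4% of tested genes had no overlap in either direction. Its log2 fold change was 0.69 ± 0.22 (SE; edgeR adjusted p = 0.0138), and it was called under 27 of 27 alternative settings. Wnt2 encodes a Wnt ligand of liver endothelial cells. Wnt2 was at 1.66, 3.1, 1.99, 1.42 and 1.75 CPM in WSD, against 2.53, 1.46, 1.87, 0.651 and 1.39 CPM in CTRL. These ranges overlapped, and the log2 fold change of 0.33 ± 0.3 did not pass (edgeR adjusted p = 0.381).

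Endothelial markers rose beside Rspo3, and so did hepatic stellate cell markers (11 of 14 higher, median 1.24 on the log2 scale). Rspo3 was set only against the endothelial list. Of 16 liver endothelial markers, 12 were higher and 0 lower in WSD (median 0.69 on the log2 scale), and their summed level was 306 to 463 CPM in WSD libraries against 126.4 to 349 CPM in CTRL libraries. None of them was at 0. Of 7 central vein endothelial markers, 4 were higher, among them Selp with 2.55 CPM in WSD and 0.689 CPM in CTRL and Vwf with 11 and 5.57 CPM. Taken relative to the mean log2 CPM of the 16 endothelial markers, Rspo3 differed by -0.06 between WSD and CTRL (two-sided exact permutation p = 0.675, adjusted p = 0.794 over 40 tests). Wnt2 on the same scale was lower by -0.43, with 4 of 5 WSD libraries below every CTRL library (exact permutation p = 0.0238, adjusted p = 0.136).

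The receptor Lgr5 binds R-spondins and is itself a Wnt target in pericentral hepatocytes. Lgr5 was at 2.35, 2.89, 3.24, 3.57 and 1.87 CPM in WSD, against 2.98, 2.74, 5.13, 3.43 and 4.84 CPM in CTRL. The groups overlapped, and the log2 fold change of -0.46 ± 0.23 did not pass (edgeR adjusted p = 0.0959). Znrf3, a ligase that removes Wnt receptors, was at 5.81, 7.35, 7.27, 7.78 and 5.65 CPM in WSD, against 7.14, 7.25, 10.6, 8.58 and 9.53 CPM in CTRL. Of the WSD libraries, 2 lay below all of CTRL, and the others overlapped it. Its log2 fold change was -0.35 ± 0.13 (edgeR adjusted p = 0.0271). It was called in 20 of 27 alternatives. The call was lost without the low-count filter (adjusted p = 0.0504), with only the libraries of both groups (0.0767), without WSD replicate 1 (0.0747), WSD replicate 5 (0.0813), CTRL replicate 3 (0.0926) or CTRL replicate 5 (0.0682), and the value turned to 0.12 when libraries were scaled by size alone.

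Its paralog Rnf43 went the other way without passing the test. Rnf43 was at 20.4, 21.7, 27.0, 21.6 and 15.8 CPM in WSD, against 10.5, 13.4, 18.9, 21.2 and 16.8 CPM in CTRL. Of the WSD libraries, 3 lay above all of CTRL, and the log2 fold change was 0.4 ± 0.18 (edgeR adjusted p = 0.0657). It was called in 7 of 27 alternatives, among them DESeq2 (adjusted p = 0.0349), the fit without the 3 libraries with the titles 37, 39 and 40 (0.41, adjusted p = 0.0431) and the fits without WSD replicate 5 (0.0288) or CTRL replicate 4 (0.0234). Axin2, the scaffold of the beta-catenin destruction complex and a general Wnt feedback target, was at 8.16, 9.54, 10.5, 8.24 and 7.16 CPM in WSD. In CTRL it was at 5.46, 14.9, 7.81, 9.58 and 10.2 CPM. The WSD values lay inside the CTRL range, and the log2 fold change was -0.13 ± 0.18 (edgeR adjusted p = 0.562).

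Tbx3, a T-box transcription factor that beta-catenin induces in pericentral hepatocytes, was at 21, 21.1, 24.1, 21.4 and 15 CPM in WSD. In CTRL it was at 14.7, 40.9, 43.1, 37.0 and 41.8 CPM. Of the CTRL libraries, 4 lay above every WSD library and CTRL replicate 1 lay below them all. The log2 fold change was -0.79 ± 0.25 (edgeR adjusted p = 0.0124), and -0.99 without that library. The call was lost in 1 of 27 alternatives, scaling by library size alone (adjusted p = 0.284).

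Glul, Oat and Slc1a2 are enzymes and a carrier of glutamate handling in the hepatocytes around the central vein. Oat, ornithine aminotransferase, makes glutamate semialdehyde from ornithine. Slc1a2 is the glutamate transporter GLT-1. The promoters of these 3 genes are shown because the group means of Oat and Slc1a2 fell in WSD against CTRL while that of Glul rose. Each window is the 250 bases before the RefSeq gene start on the gene's strand, in GRCm38.p6, which precedes the build of the deposited files. Glul is at chr1:153899679-153899928 (plus strand), Oat at chr7:132576399-132576648 (minus strand) and Slc1a2 at chr2:102706188-102706437 (plus strand).
Glul: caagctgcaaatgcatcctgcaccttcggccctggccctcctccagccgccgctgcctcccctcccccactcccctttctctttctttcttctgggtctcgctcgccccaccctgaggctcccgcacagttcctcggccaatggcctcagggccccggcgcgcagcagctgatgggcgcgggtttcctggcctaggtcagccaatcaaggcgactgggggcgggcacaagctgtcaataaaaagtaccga
Oat: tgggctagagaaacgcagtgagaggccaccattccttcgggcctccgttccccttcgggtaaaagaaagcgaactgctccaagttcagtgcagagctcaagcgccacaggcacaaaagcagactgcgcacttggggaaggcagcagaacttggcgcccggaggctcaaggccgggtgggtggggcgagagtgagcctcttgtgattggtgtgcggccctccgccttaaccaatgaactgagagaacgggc
Slc1a2: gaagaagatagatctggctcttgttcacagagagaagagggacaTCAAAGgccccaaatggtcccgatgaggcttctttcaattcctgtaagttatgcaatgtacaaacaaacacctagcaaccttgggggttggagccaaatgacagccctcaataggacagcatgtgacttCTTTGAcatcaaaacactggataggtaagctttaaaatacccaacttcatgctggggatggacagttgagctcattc
Capitals mark the core of the TCF/LEF motif, CTTTGA or CTTTGT, on either strand. TCF/LEF proteins carry beta-catenin to DNA. Of the 7 windows of the 6 members in the promoter table (Axin2, Glul, Oat, Rnf43 with 2 starts, Slc1a2 and Wnt2), 1 held a match. That was Slc1a2, with TCAAAG at -206 and CTTTGA at -77 from the start. Among all 32851 windows of the table, 27.6% held at least 1 such match (CTTTGA 13.8%, CTTTGT 16.5%). A match is a run of letters and was not tested as a site, and no match says only that these letters are absent from this window. Lgr5, Tbx3, Znrf3 and Rspo3 are named without sequence.

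Glul was at 1203, 1155.5, 1216, 1524 and 864 CPM in WSD, against 857, 852, 883, 996 and 1062.5 CPM in CTRL. Among the WSD libraries, 4 lay above all of CTRL and WSD replicate 5 lay inside its range. The log2 fold change was 0.36 ± 0.13 (edgeR adjusted p = 0.0298). The call was lost without WSD replicate 4 (adjusted p = 0.106), CTRL replicate 1 (0.0634), CTRL replicate 2 (0.0653) or CTRL replicate 3 (0.0591).

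Oat was at 599, 760.3, 1141, 1536 and 505 CPM in WSD, against 1461, 2119.5, 1317, 1249.5 and 1361 CPM in CTRL. Among the WSD libraries, 4 lay below all of CTRL and WSD replicate 4 lay above 4 of the CTRL libraries. The log2 fold change was -0.73 ± 0.27 (edgeR adjusted p = 0.0298). This call was lost in 8 of 27 alternatives, among them the fits without WSD replicate 1 (adjusted p = 0.0796), WSD replicate 2 (0.0662), WSD replicate 5 (0.0774) or CTRL replicate 2 (0.0897) and the fit without the 3 libraries with the titles 37, 39 and 40 (0.0568).

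Slc1a2 was at 71.4, 89.6, 106, 142 and 57.5 CPM in WSD, against 152.5, 187, 129, 136 and 158 CPM in CTRL. Again 4 WSD libraries lay below all of CTRL, and WSD replicate 4 was the exception. The log2 fold change was -0.71 ± 0.18 (edgeR adjusted p = 0.00313), and it was called in 26 of 27 alternatives, the exception being library size alone (adjusted p = 0.161).

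The hepatocyte markers fell as a group in WSD. Of 17 general hepatocyte markers tested, 0 were higher and 13 lower (median -0.62 on the log2 scale; 2 higher and 4 lower with library size alone), and their summed level was 83581 to 93977 CPM in WSD libraries against 138082 to 171849 CPM in CTRL libraries. Alb averaged 38552 CPM in WSD and 83731 CPM in CTRL. Relative to the mean log2 CPM of these markers, Glul was higher by 0.88 and Rnf43 by 0.96 in WSD, with 5 of 5 WSD libraries above all CTRL libraries for each (two-sided exact permutation p = 0.00794, the smallest that 5 against 5 libraries allow; adjusted p = 0.106). On that scale Oat differed by -0.28 (exact permutation p = 0.397) and Slc1a2 by -0.22 (0.381). Tbx3 differed by -0.16 (exact permutation p = 0.627), Znrf3 by 0.21 (0.19), Lgr5 by 0.11 (0.667) and Axin2 by 0.47 (0.0873). Over the 4 pairwise comparisons, 10 of these 40 tests had an exact p under 0.05 and 0 passed after adjustment. The smallest possible p of 0.00794 could pass only if several tests had small p together. The 0 therefore does not show that no member differed.

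**Figure D2:**
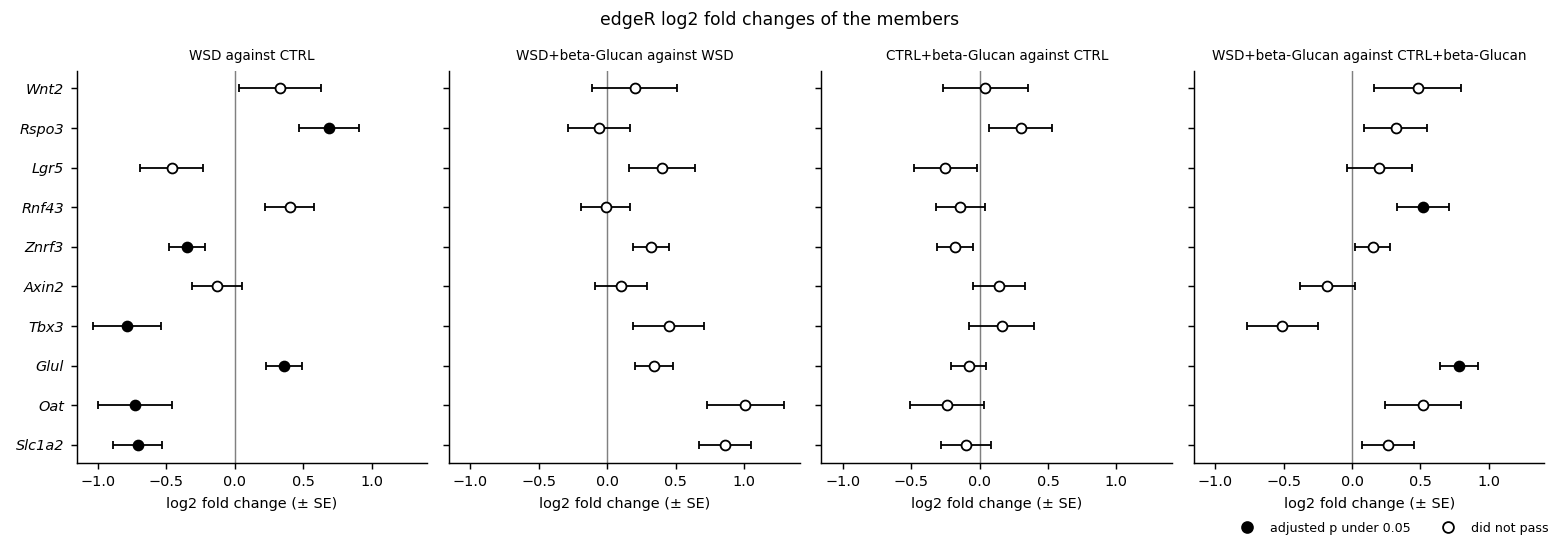
edgeR log2 fold change of each member (x axis, bars are SE) in 4 comparisons, 1 panel each, the group named first over the group named second; filled points passed an adjusted p under 0.05. In WSD against CTRL, Rspo3 (0.69) and Glul (0.36) lie right of 0 and Slc1a2 (-0.71), Oat (-0.73), Tbx3 (-0.79) and Znrf3 (-0.35) lie left of it; no point is filled in either panel of beta-glucan against the same diet.

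The second comparison asked what beta-glucan did on WSD. No member passed the test in WSD+beta-Glucan against WSD: 0 of 10 with edgeR, where 0.39% of all tested genes were called (0.0883% higher and 0.302% lower), 4 of 10 at an unadjusted p under 0.05, and 2 of 10 with DESeq2. Of all 13594 genes, 15.6% had such an unadjusted p, and DESeq2 called 436. The largest differences were those of Oat and Slc1a2, whose levels were 2.02-fold and 1.82-fold those of WSD. The members' log2 fold changes had a median of 0.33, against 0.01 over all genes, and 8 of 10 were above 0.

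Oat was at 1842.5, 1564, 1334 and 2588.5 CPM in the WSD+beta-Glucan libraries, against 599, 760.3, 1141, 1536 and 505 CPM in WSD. Among the WSD+beta-Glucan libraries, 3 of 4 lay above all of WSD, so the groups overlapped. Oat is thus not among the 7.42% of tested genes whose groups had no overlap. The share of genes with 3 of 4 libraries above was not computed. The log2 fold change was 1.01 ± 0.28 (edgeR adjusted p = 0.105). Slc1a2 was at 151, 172.5, 140.5 and 215 CPM in WSD+beta-Glucan, against 71.4, 89.6, 106, 142 and 57.5 CPM in WSD, and 3 of 4 lay above all of WSD. Its log2 fold change was 0.86 ± 0.19 (edgeR adjusted p = 0.0595).

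The threshold was crossed in some settings. DESeq2 called both (adjusted p = 0.02 for Oat and 0.00327 for Slc1a2). Leaving out WSD replicate 4, the WSD library with the highest Oat and Slc1a2, gave edgeR adjusted p = 0.0363 for Oat and 0.0188 for Slc1a2. Slc1a2 was called in 6 of 27 alternatives (adjusted p 0.00327 to 0.287) and Oat in 2 (0.02 to 0.422). Relative to the hepatocyte markers, Oat was 0.96 higher (exact permutation p = 0.0476, adjusted p = 0.19) and Slc1a2 0.78 higher (exact permutation p = 0.0317, adjusted p = 0.141).

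Glul was at 1297, 1384, 1475 and 1876 CPM in WSD+beta-Glucan, against 1203, 1155.5, 1216, 1524 and 864 CPM in WSD. One WSD+beta-Glucan library lay above all of WSD, and the log2 fold change was 0.34 ± 0.14 (edgeR adjusted p = 0.255). Znrf3 was at 9.39, 7.64, 8.74 and 8.0 CPM in WSD+beta-Glucan and 5.65 to 7.78 CPM in WSD, a log2 fold change of 0.32 ± 0.13 (edgeR adjusted p = 0.26). Tbx3 was at 28.2, 22.3, 29.3 and 32.2 CPM in WSD+beta-Glucan, with 3 of 4 above the WSD range of 15 to 24.1 CPM. Its log2 fold change was 0.45 ± 0.26 (edgeR adjusted p = 0.417).

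Lgr5 was at 3.62, 3.19, 3.72 and 4.21 CPM in WSD+beta-Glucan and 1.87 to 3.57 CPM in WSD, a log2 fold change of 0.4 ± 0.24 (edgeR adjusted p = 0.421). The 4 others were nearer to 0. Log2 fold changes were 0.2 ± 0.31 for Wnt2, 0.1 ± 0.19 for Axin2, -0.01 ± 0.18 for Rnf43 and -0.06 ± 0.23 for Rspo3 (edgeR adjusted p 0.796 to 0.984). Macrophage markers summed to 576 to 675 CPM in WSD+beta-Glucan libraries and 1008 to 1207 CPM in WSD libraries. Of these 12 markers edgeR called 0, and 11 had an unadjusted p under 0.05 (median log2 fold change -0.86). Hepatocyte markers summed to 91971 to 127703 CPM in WSD+beta-Glucan and 83581 to 93977 CPM in WSD. Of 17 tested, 0 were called and 4 had such an unadjusted p, beside 0.39% and 15.6% of all tested genes. The part of macrophages in the members' differences was not tested.

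The third comparison set CTRL+beta-Glucan against CTRL. No member differed beyond the spread of the libraries: 0 of 10 were called with edgeR, beside 0.00736% of all tested genes, 0 had an unadjusted p under 0.05 and 0 were called with DESeq2 (edgeR adjusted p 0.87 to 0.986). Log2 fold changes lay between -0.25 ± 0.23 for Lgr5 and 0.3 ± 0.23 for Rspo3. Glul was at 890.0, 858, 1002, 737 and 910.3 CPM in CTRL+beta-Glucan, against 857, 852, 883, 996 and 1062.5 CPM in CTRL, and the approximate 95% interval of its log2 fold change ran from -0.34 to 0.18. Oat was at 1345, 1167, 1557, 842 and 1465 CPM in CTRL+beta-Glucan, against 1249.5 to 2119.5 CPM in CTRL, with an interval from -0.76 to 0.29. Slc1a2 was at 153, 147, 145, 121 and 144 CPM in CTRL+beta-Glucan, against 129 to 187 CPM in CTRL, with an interval from -0.46 to 0.25. A change of Oat as large as the 1.01 seen on WSD lies outside its interval here.

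Whether beta-glucan acted differently on the diets was tested as the difference of both log2 fold changes. With edgeR 0 of 10 members were called, beside 0.00736% of all tested genes, 4 of 10 had an unadjusted p under 0.05, and DESeq2 called 0. Of all 13594 genes, 13.7% had such an unadjusted p, and DESeq2 called 139. The difference was 1.25 ± 0.39 for Oat (edgeR adjusted p = 0.222) and 0.97 ± 0.26 for Slc1a2 (edgeR adjusted p = 0.181). It was 0.5 ± 0.18 for Znrf3 (edgeR adjusted p = 0.278) and 0.42 ± 0.19 for Glul (adjusted p = 0.351).

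The fourth comparison set WSD+beta-Glucan against CTRL+beta-Glucan, the effect of WSD in the presence of beta-glucan. Glul rose 1.71-fold and Rnf43 rose 1.43-fold, and no other member passed. These 2 calls of 10, both higher, stand beside 34.3% of all tested genes called, with 19.1% of tested genes higher and 15.2% lower. With library size alone, 5 members were higher and 0 lower, and of all genes 5137 were higher and 385 lower. This comparison shares no library with that of WSD against CTRL.

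Glul was at 1297, 1384, 1475 and 1876 CPM in WSD+beta-Glucan, against 890.0, 858, 1002, 737 and 910.3 CPM in CTRL+beta-Glucan. All libraries of WSD+beta-Glucan lay above all of CTRL+beta-Glucan, and 25.2% of tested genes had no overlap in either direction. The log2 fold change was 0.78 ± 0.14 (edgeR adjusted p = 0.000316), and it was called in 27 of 27 alternatives with 0.65 to 1.07. Relative to the hepatocyte markers Glul was 1.18 higher (exact permutation p = 0.00794, the smallest that 4 against 5 libraries allow; adjusted p = 0.106). Glul was not alone in this. Rnf43 was 0.94 higher (exact permutation p = 0.0317), Oat 0.92 (0.0159), Slc1a2 0.65 (0.0238) and Znrf3 0.56 (0.0238). Lgr5 differed by 0.66 (exact permutation p = 0.0952), Axin2 by 0.21 (0.405) and Tbx3 by -0.05 (0.889). None of these passed after adjustment (adjusted p 0.136 to 0.912).

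Rnf43 was at 17.2, 22.4, 23.7 and 21 CPM in WSD+beta-Glucan, against 10.7, 13.2, 14.2, 18.4 and 16.8 CPM in CTRL+beta-Glucan. Among the WSD+beta-Glucan libraries, 3 of 4 lay above all of CTRL+beta-Glucan, and the log2 fold change was 0.52 ± 0.19 (edgeR adjusted p = 0.0379). This call was lost in 9 of 27 alternatives, among them the fit without the 3 libraries with the titles 37, 39 and 40 (0.45, adjusted p = 0.123). It was also lost without WSD+beta-Glucan replicate 2 (adjusted p = 0.0888), replicate 3 (0.104) or replicate 4 (0.0637), and without CTRL+beta-Glucan replicate 1 (0.0896), replicate 2 (0.0756) or replicate 3 (0.0652).

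The members that had fallen in WSD without beta-glucan did not pass here. Oat was 0.52 ± 0.28 and Slc1a2 0.26 ± 0.19 on the log2 scale (edgeR adjusted p = 0.16 and 0.313), and Znrf3 was 0.15 ± 0.13 (0.418). Tbx3 was at 28.2, 22.3, 29.3 and 32.2 CPM in WSD+beta-Glucan, against 25.5, 29.0, 43.1, 48.9 and 51.7 CPM in CTRL+beta-Glucan, a log2 fold change of -0.51 ± 0.26 (edgeR adjusted p = 0.143). The lowest of the CTRL+beta-Glucan values for Tbx3 belonged to replicates 1 and 2, which are among the 3 libraries with the lowest title numbers. Over the 27 alternatives the log2 fold change of Tbx3 ran from -0.77 to -0.23. It was called in 1 of them, the fit without CTRL replicate 1 (edgeR adjusted p = 0.0384). Rspo3 was 0.32 ± 0.23 and Wnt2 0.48 ± 0.32 (edgeR adjusted p = 0.295 and 0.254). Of the liver endothelial markers, 1 of 16 was higher here. The difference between both WSD effects equals the difference between both beta-glucan effects, for which no member was called above. For Tbx3 it was 0.28 ± 0.36 (edgeR adjusted p = 0.735).

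The ratio of Oat to Slc1a2 varied little between groups while that of Glul to either did not stay the same. These ratios were chosen after the values had been seen and are described without a test. The log2 ratio of Oat to Slc1a2 averaged 3.41 ± 0.22 in WSD+beta-Glucan, 3.23 ± 0.19 in WSD, 3.14 ± 0.26 in CTRL+beta-Glucan and 3.29 ± 0.15 in CTRL (SD over libraries). The ratio of Glul to Slc1a2 averaged 3.16 ± 0.17 in WSD+beta-Glucan, 3.72 ± 0.27 in WSD, 2.63 ± 0.1 in CTRL+beta-Glucan and 2.62 ± 0.28 in CTRL. Its range in WSD, 3.42 to 4.07, lay above the ranges of 3.0 to 3.39 in WSD+beta-Glucan and 2.19 to 2.88 in CTRL. The ratio of Glul to Oat averaged -0.25 ± 0.3 in WSD+beta-Glucan, 0.49 ± 0.44 in WSD, -0.51 ± 0.2 in CTRL+beta-Glucan and -0.67 ± 0.4 in CTRL.

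**Figure D3:**
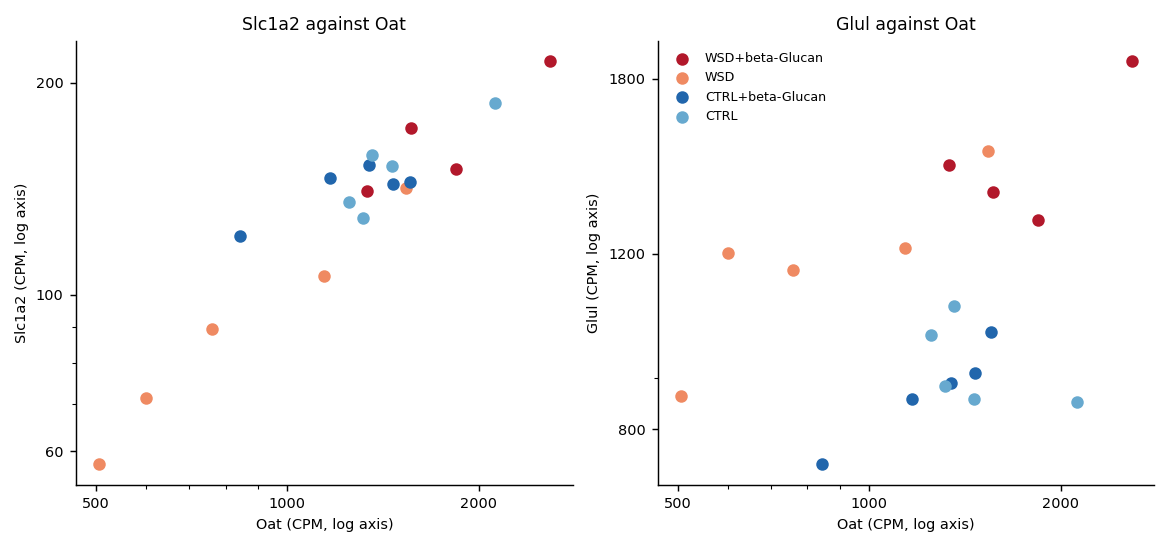
Slc1a2 (left panel) and Glul (right panel) against Oat in each library, in TMM-scaled CPM on log axes, coloured by group. Over all groups Slc1a2 rises with Oat, and the 4 libraries lowest in Slc1a2 are WSD (57.5 to 106 CPM). Within the CTRL diets the relation rests on the 2 farthest libraries (r = 0.23 without them). For Glul the libraries of the WSD diets lie above those of the CTRL diets at the same Oat level.

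Member pairs were compared across the libraries of a diet. Among the 9 libraries of WSD+beta-Glucan and WSD, 15 of 45 member pairs passed an adjusted p under 0.05 (exact permutation test of Pearson's r of log2 CPM, adjusted over 90 pairs), all with positive r. Among the 10 libraries of CTRL+beta-Glucan and CTRL, 4 of 45 did, also all positive. With each group centred on its own mean the counts were 7 and 4. The weakest of the passing pairs had r = 0.8 on the WSD diets, a value reached by 33.3% of member pairs and 1.87% of all pairs of the 13594 genes. On the CTRL diets it was 0.75, reached by 11.1% of member pairs and 2.04% of all pairs. Most of these pairs did not pass by Spearman's rho, the correlation of ranks (permutation test, adjusted over 90 pairs). By rho, Oat with Slc1a2 (adjusted p = 0.00446) and Lgr5 with Tbx3 (adjusted p = 0.0159) passed on the WSD diets. No other pair on either diet had an adjusted p of rho under 0.0812. These libraries share their scaling and include both beta-glucan groups of a diet, and the difference between diets in these counts was not tested.

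Oat and Slc1a2 were the closest pair on the WSD diets, with r = 0.98 (exact permutation p = 1.93e-05, adjusted p = 0.00174) and rho = 0.98 (exact permutation p = 4.96e-05, adjusted p = 0.00446) over 9 libraries. Without the 2 libraries farthest from the median r was 0.95, and r was 0.96 after centring. On the CTRL diets r was 0.84 (permutation p = 0.0079, adjusted p = 0.0413) and rho was 0.58 (permutation p = 0.0867). That r was 0.23 without the 2 farthest libraries, so the relation rests on them. Glul also varied with both over the WSD-diet libraries. Its r was 0.87 with Oat (exact permutation p = 0.00152, adjusted p = 0.0171) and 0.9 with Slc1a2 (exact permutation p = 0.000774, adjusted p = 0.00996). After centring these r were 0.8 (adjusted p = 0.061) and 0.87 (adjusted p = 0.0405). On the CTRL diets they were 0.38 and 0.25 (adjusted p = 0.592 and 0.768).

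Lgr5 followed the hepatocyte members on the WSD diets. Lgr5 and Oat had r = 0.93 (exact permutation p = 9.65e-05, adjusted p = 0.00434) and rho = 0.83 (exact permutation p = 0.00827, adjusted p = 0.0827), with r = 0.87 without the 2 farthest libraries. Lgr5 and Glul had r = 0.9 (exact permutation p = 0.000573, adjusted p = 0.00996) and rho = 0.87 (exact permutation p = 0.00451, adjusted p = 0.0812), with r = 0.88 without the 2 farthest. By Pearson's r, Lgr5 and Znrf3 passed on both diets. Their r was 0.89 on the WSD diets (exact permutation p = 0.00235, adjusted p = 0.0235) and 0.55 without the 2 farthest libraries. On the CTRL diets r was 0.87 (permutation p = 0.00068, adjusted p = 0.00996) and 0.82 without the 2 farthest. After centring, r was 0.81 on the WSD diets (adjusted p = 0.0549) and 0.86 on the CTRL diets (adjusted p = 0.0335). Their rho was 0.88 and 0.84 (permutation p = 0.00308 and 0.00372) and passed on neither diet (adjusted p = 0.0812 for both).

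The ligands Wnt2 and Rspo3 had r = 0.85 on the CTRL diets (permutation p = 0.00737, adjusted p = 0.0413) and rho = 0.67 (permutation p = 0.0395, adjusted p = 0.178), with r = 0.54 without the 2 farthest libraries. On the WSD diets their r was 0.68 (exact permutation p = 0.0471, adjusted p = 0.184). Neither ligand passed with any of the 8 other members on either diet.

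Among 10475 protein-coding genes compared, those most like Rspo3 by the lower of the r values over 9 WSD-diet and 10 CTRL-diet libraries were Plpp1 (0.81 and 0.87), Adgrl4 (0.87 and 0.78), Gimap4 (0.9 and 0.77), Flt1 (0.77 and 0.9) and Erg (0.74 and 0.78). Flt1 and Erg also stand in the list of liver endothelial markers. Those most like Glul were Cyp4f17 (0.84 and 0.78), Fbxw2 (0.77 and 0.77), Wipi2 (0.74 and 0.77), Setd3 (0.9 and 0.73) and Pex16 (0.75 and 0.72). Those most like Axin2 were Acvr1b (0.84 and 0.78), Chd1l (0.79 and 0.73), Bcl9l (0.72 and 0.83), Pcsk7 (0.71 and 0.69) and Baz2a (0.67 and 0.76). None of the 10 members was among these 15 genes.

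The transcripts of a gene were estimated separately. Glul-201 held 99.7% of the reads of Glul and Rspo3-201 held 99.9% of those of Rspo3, and Wnt2 had a single transcript. Slc1a2 was split between Slc1a2-202 (11595 bases, 67.2% of its reads), Slc1a2-203 (1957 bases, 18.5%) and Slc1a2-201 (2127 bases, 14.2%). The long Slc1a2-202 took 73.3 ± 4.49% of Slc1a2 reads in WSD+beta-Glucan (SD, n = 4), 69.6 ± 4.43% in WSD (n = 5), 61.5 ± 3.51% in CTRL+beta-Glucan (n = 5) and 63.8 ± 5.53% in CTRL (n = 5). WSD+beta-Glucan against CTRL+beta-Glucan gave an exact permutation p = 0.00794 (adjusted p = 0.0952 over 36 tests). When gene lengths were taken from the deposited effective lengths, the log2 fold change of Slc1a2 in that comparison turned to -0.02 in place of 0.26.

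Znrf3-201 took 81.5 ± 2.43% of Znrf3 reads in WSD and 72.0 ± 3.66% in CTRL, with the same exact permutation p = 0.00794 and adjusted p = 0.0952. Lgr5-201 took 91.7 ± 2.36% in WSD and 97.2 ± 1.21% in CTRL (exact permutation p = 0.00794, adjusted p = 0.0952). Lgr5 rested on 26.5 to 100 reads per library. CTRL+beta-Glucan lay on the same side of CTRL, at 78.9 ± 4.02% for Znrf3-201 and 93.2 ± 2.39% for Lgr5-201 (exact permutation p = 0.0238 and 0.0159, adjusted p = 0.143 for both). WSD+beta-Glucan against CTRL+beta-Glucan differed by 0.7 and 1.16 percentage points (exact permutation p = 0.762 and 0.452). Of the 36 tests on 9 members, 7 had an exact p under 0.05 and 0 passed after adjustment. Since 0.00794 is the smallest possible p, a pass needed several tests with small p together, and the 0 does not show equal shares. Rnf43 was divided between Rnf43-202 (42.0% of its reads) and Rnf43-201 (39.7%), and the share of Rnf43-202 ran from 0.0% to 63.0% over libraries.

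The lists of the wider Wnt pathway were read in WSD against CTRL. Their counts stand beside 53.0% of all tested genes called there, 26.0% higher and 27.1% lower. Of 8 tested general Wnt target genes among 12 listed, 5 were higher and 1 lower, with a median log2 fold change of 0.91. Ccnd1, a G1 cyclin, was at 39.5 CPM in WSD and 7.15 CPM in CTRL (log2 fold change 2.47 ± 0.18, edgeR adjusted p = 3.94e-09). Cd44, an adhesion receptor also found on leukocytes, was at 16.3 and 2.55 CPM, and Tnfrsf19 at 9.82 and 2.8 CPM in the same order. Notum, a secreted enzyme that inactivates Wnt, was lower at 23.4 CPM in WSD and 31.1 CPM in CTRL (log2 fold change -0.41 ± 0.12, edgeR adjusted p = 0.00562). Leukocyte markers rose beside them, with 12 of 12 macrophage markers and 11 of 11 tested T and NK cell markers higher. The part of these cells in the Wnt target genes was not tested.

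Of the other ligands and their secretion genes, 9 of 23 were tested, and 2 were higher and 2 lower in WSD (all tested genes: 26.0% higher and 27.1% lower). Wls, which ferries Wnt proteins to the surface, was at 6.87 CPM in WSD and 2.19 CPM in CTRL (log2 fold change 1.64 ± 0.26, edgeR adjusted p = 3.52e-05). Porcn, which attaches their lipid, was at 2.2 CPM in WSD and 4.16 CPM in CTRL (log2 fold change -0.92 ± 0.16, edgeR adjusted p = 0.0001). Wnt4 was higher (1.06 ± 0.32) and Wnt5b lower (-0.75 ± 0.27). Hepatic stellate cell markers were also higher, 11 of 14 with 0 lower.

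Of 11 tested receptors, 0 were higher and 4 lower in WSD, beside 26.0% of all tested genes higher and 27.1% lower. Lgr4, the R-spondin receptor spread across the whole lobule, was at 16.7 CPM in WSD and 28.8 CPM in CTRL (log2 fold change -0.79 ± 0.14, edgeR adjusted p = 0.000142). The co-receptor Lrp6 was at 31.8 CPM in WSD and 48.9 CPM in CTRL, and Ryk at 29.3 and 40.0 CPM. Of 19 tested intracellular components, 2 were higher and 9 lower, among them Axin1 of the destruction complex (20.8 CPM in WSD, 30.2 CPM in CTRL) and the tankyrase Tnks (12.7 and 18.5 CPM), which marks axins for removal. These directions turned with library size alone, where 2 receptors were higher and 1 lower, and 7 intracellular components were higher and 0 lower. Relative to the median of all genes, the lists' medians were then -0.21 and -0.19, against -0.26 and -0.23 under TMM scaling. Of 5 tested Wnt inhibitors, 3 were higher: Frzb (3.22 CPM in WSD, 0.534 CPM in CTRL), Dkk3 (5.58 and 2.03 CPM) and Trabd2b (0.751 and 0.416 CPM).

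The other pericentral hepatocyte genes also moved in both directions. Of 19 tested, 5 were higher and 8 lower in WSD, with a median of -0.06, and with library size alone 8 were higher and 4 lower. Over all tested genes, 26.0% were higher and 27.1% lower in WSD under TMM scaling. Gstm3, a glutathione transferase, was at 164 CPM in WSD and 15.8 CPM in CTRL (log2 fold change 3.38 ± 0.32), and Slc13a3, a dicarboxylate carrier, was at 49.9 and 12 CPM. Avpr1a, a vasopressin receptor, was at 4.35 CPM in WSD and 19 CPM in CTRL (log2 fold change -2.13 ± 0.18), and Cyp1a2 was at 167 and 389 CPM. Nr1i3, the nuclear receptor CAR, was at 177 CPM in WSD and 324 CPM in CTRL. Periportal hepatocyte genes mostly fell: 1 of 18 was higher and 14 lower, with a median of -0.83. Among these Pck1, the gate of gluconeogenesis, was at 1143 CPM in WSD and 5588 CPM in CTRL, and Asl of the urea cycle at 393 and 1415 CPM.

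**Figure D4:**
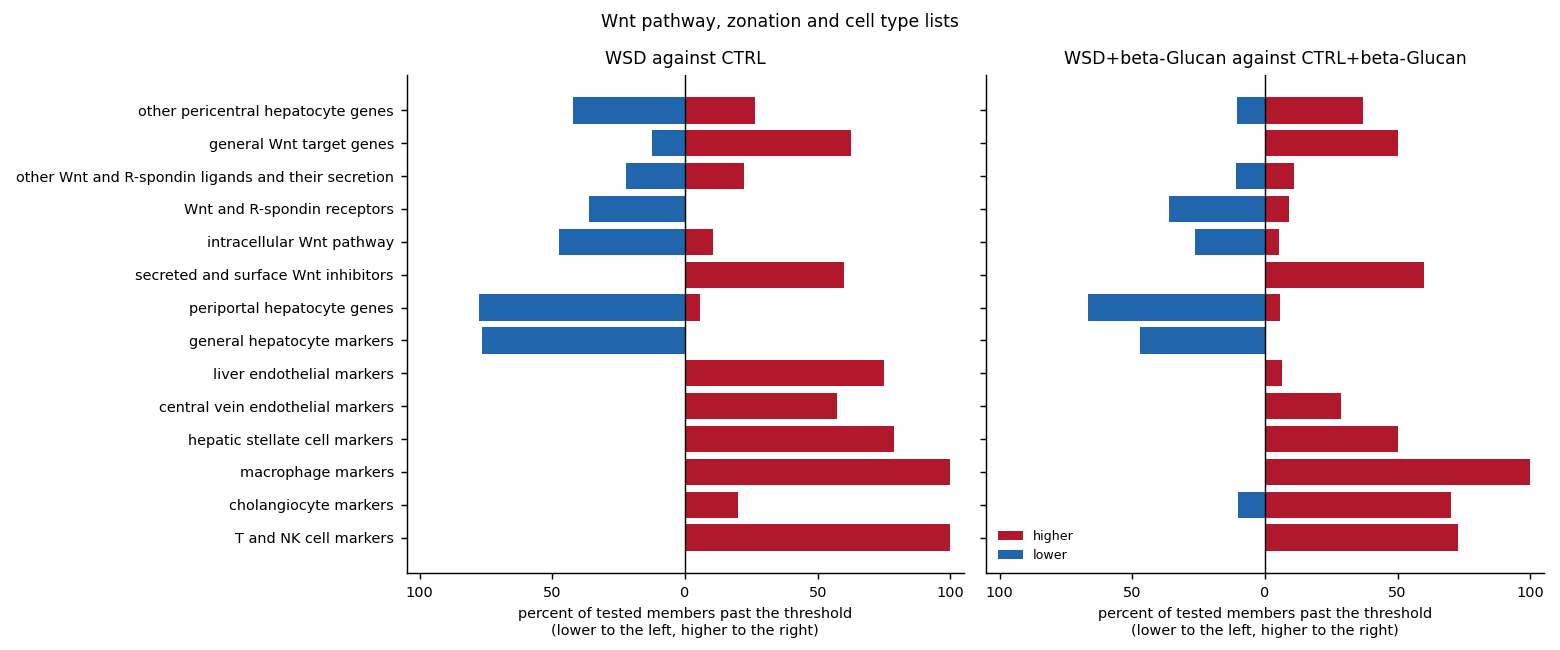
Share of the tested genes of each list past an edgeR adjusted p under 0.05 (x axis, percent, higher to the right and lower to the left), with WSD against CTRL on the left and WSD+beta-Glucan against CTRL+beta-Glucan on the right. Of all tested genes, 26.0% were higher and 27.1% lower in the first comparison, and 19.1% and 15.2% in the other. Wnt receptors (0 higher and 4 lower of 11) and periportal genes (1 and 14 of 18) lean left in WSD against CTRL under TMM scaling (2 receptors higher and 1 lower with library size alone), endothelial, stellate and leukocyte markers lean right, and the other pericentral genes (5 and 8 of 19) lie on both sides.

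In WSD+beta-Glucan against CTRL+beta-Glucan, 19.1% of all tested genes were higher and 15.2% lower. The other pericentral genes had 7 higher and 2 lower of 19, with a median of 0.38, and the receptors had 1 higher (Fzd1) and 4 lower of 11. The intracellular components had 1 higher of 19, Ctnnb1, which encodes beta-catenin, at 145 CPM in WSD+beta-Glucan and 121 CPM in CTRL+beta-Glucan (log2 fold change 0.27 ± 0.09, edgeR adjusted p = 0.0241), and 5 lower. With library size alone the receptors had 3 higher and 0 lower, and the intracellular components 2 higher and 0 lower. In WSD+beta-Glucan against WSD, 1 of the 175 tested list genes passed, Nr1i3, at 285 CPM in WSD+beta-Glucan and 177 CPM in WSD (log2 fold change 0.68 ± 0.13, edgeR adjusted p = 0.0276), and 37 had an unadjusted p under 0.05. Of all tested genes, 0.39% passed and 15.6% had such an unadjusted p. In CTRL+beta-Glucan against CTRL, edgeR called 0 of the 175 and 5 had an unadjusted p under 0.05, while DESeq2 called 5 genes among all those tested. Such an unadjusted p was found for 5.7% of all tested genes.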

How the data were processed

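Per the labels' protocols, liver RNA (PureLink kit) went into TruSeq Stranded mRNA libraries. The submitters' processing notes name Salmon 1.10.1, GRCm39 and, with no role, DESeq2 1.38.3, and the transcript set is not given in the sources used here. The authors deposited, per transcript and library, estimated counts (expected counts, unscaled), TPM and, as another unit, effective lengths in bases. Of 116546 transcripts, 115977 (99.51%) matched GENCODE M21 by identifier; the other 569 were left out (0.0623% to 0.1095% of reads). Estimated counts were summed per gene and rounded.

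edgeR 4.0.16 in R 4.3.3 was used with filterByExpr, TMM, a mean per group over 19 libraries (common dispersion 0.0341) and robust quasi-likelihood tests. These were run on simulated counts in which few genes changed, which does not check TMM where many genes differ. The SE is the absolute log2 fold change over the square root of F, and intervals are 1.96 SE to each side. Log2 CPM used a prior count of 2. Marker lists and transcript shares (members with at least 10 reads in every library) used two-sided exact permutation tests, and correlations over 10 libraries used 100000 resamples. The alternatives for each comparison were up to 27: 19 single libraries left out, RLE scaling, no filter, DESeq2 1.42.0, the compared groups only, effective-length offsets, the 3 libraries left out and, chosen after seeing the data, library size alone and a term for these 3. Named list genes are up to 3 per direction with the smallest p among those called. The members and lists were chosen with earlier results of these data known. The general hepatocyte list holds 18 genes, of which 17 were found by symbol. Groups come from the labels, replicates are numbered by deposition, and low counts limit the precision of rare members such as Wnt2. Promoters are from RefSeq.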

Additional observations from a re-analysis of the deposited data

Results flagged for a closer look

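Of 40 sets of values (10 members in 4 groups), 3 held a library whose gap to its neighbour took up an unusually large part of the group's range, and chance alone gives about 1 in 20. Tbx3 was at 14.7 CPM in CTRL replicate 1, against 37.0 to 43.1 CPM in the other CTRL libraries. The same library had the lowest Axin2 (5.46 CPM) and Rnf43 (10.5 CPM) and the highest Wnt2 (2.53 CPM) and Rspo3 (3.49 CPM) of its group. Without it, the log2 fold change of Tbx3 was -0.99 in WSD against CTRL. Oat was at 2119.5 CPM in CTRL replicate 2, against 1249.5 to 1461 CPM in the other CTRL libraries, and Slc1a2 was also highest there, at 187 CPM. Without it, the log2 fold change of Oat in WSD against CTRL was -0.57 (edgeR adjusted p = 0.0897). Slc1a2 was at 121 CPM in CTRL+beta-Glucan replicate 4, against 144 to 153 CPM in the other libraries of that group, and Oat was also lowest there, at 842 CPM.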

How the results depend on the processing

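Members called in WSD against CTRL numbered 4 to 7 over all alternatives and over single libraries left out (6 as reported), and all genes called 6448 to 7401 with libraries left out. With library size only the split was 4 members higher and 0 lower, and 7874 genes higher and 617 lower (8491 in all). For WSD+beta-Glucan against WSD, 2 members were called with DESeq2, 1 with library size only and 1 with the term for the 3 libraries (0 to 2 with libraries left out), and all genes called were 436, 294 (11 higher, 283 lower) and 258, with 457 from these groups only, 34 with effective-length offsets and 2 to 184 with libraries left out (53 as reported). For WSD+beta-Glucan against CTRL+beta-Glucan, 1 member was called without the filter, with effective-length offsets or without the 3 libraries, and 5 with library size only (1 to 3 and 3681 to 4720 genes with single libraries left out). All genes called there were 3414 without the 3 libraries and 3400 from these groups only (4656 as reported). For CTRL+beta-Glucan against CTRL, genes called were 5 with DESeq2 or without the 3 libraries, 0 with these groups or library size only and 2 with the term (0 to 2 with libraries left out). For the difference of both effects they were 139 with DESeq2, 2 without the 3 libraries or with the term, 3 with library size only, and 0 to 81 with libraries left out. Pairs correlated by Pearson's r fell to 11 after centring on the groups (19 as reported). No member called as reported changed sign except Znrf3 with library size only. That scaling moved the median of all genes to 0.43 in WSD against CTRL, -0.14 in WSD+beta-Glucan against WSD and 0.28 in WSD+beta-Glucan against CTRL+beta-Glucan, so that relative to the median the WSD against CTRL values stayed at 0.73 for Rspo3, 0.39 for Glul, -0.68 for Slc1a2, -0.71 for Oat, -0.75 for Tbx3 and -0.31 for Znrf3.

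The signs of these values turned. In WSD against CTRL they turned with library size only for Lgr5 (0.0), Znrf3 (0.12) and Axin2 (0.33), and for Axin2 with effective-length offsets (0.03) and with libraries left out (-0.28 to 0.08). In WSD+beta-Glucan against WSD they turned for Rspo3 with the term (0.01) and with libraries left out (-0.13 to 0.03), for Rnf43 without the 3 libraries (0.07), with the term (0.08) and with libraries left out (-0.1 to 0.09), for Axin2 with library size only (-0.05) and for Wnt2 with libraries left out (-0.02 to 0.42). In CTRL+beta-Glucan against CTRL they turned for Rnf43 without the 3 libraries (0.03) and with the term (0.02), and with libraries left out for Axin2 (-0.0 to 0.36), Tbx3 (-0.03 to 0.28) and Wnt2 (-0.15 to 0.28). In WSD+beta-Glucan against CTRL+beta-Glucan they turned for Slc1a2 with effective-length offsets (-0.02) and Axin2 with library size only (0.12). For the difference of both effects they turned with library size only for Wnt2 (-0.04) and Rnf43 (-0.05), for Axin2 without the 3 libraries (0.06), and with libraries left out for Axin2 (-0.26 to 0.1) and Wnt2 (-0.08 to 0.38). The cause of these changes was not tested. No paired analysis was possible because the labels give no replicate numbers shared between groups. Wnt2, with 11 to 77 reads per library, is measured with low precision.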
